A study of Saccharomyces pastorianus with 12 samples.

Results

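The small subunit of the cytosolic ribosome (40S) was followed through its messenger RNAs in a pair of lager yeast strains. The genes were taken by symbol: RPS, a number, an optional letter A or B and an optional copy number. This gave 101 gene copies of the 11312 listed, and none of the 101 was dropped for an unreadable count. They carry 46 symbols and belong to 30 proteins, RPS0 to RPS29. Other proteins of the 40S subunit are not among these 30. Of the 46 symbols, 11 have 1 copy, 22 have 2, 6 have 3 and 7 have 4. In 14 proteins both an A and a B paralog are listed. All 7 symbols with 4 copies, such as RPS4A, RPS6A, RPS11A and RPS23A, carry the letter A, and the files do not say whether some of those copies are B paralogs. One copy of RPS0 and one of RPS29 are listed without a letter. The files do not say which copy descends from which parent species.

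Both strains, SpIB2 and SpIB1, belong to Saccharomyces pastorianus, the hybrid of Saccharomyces cerevisiae and Saccharomyces eubayanus used to ferment lager beer. Each fermented brewing wort at 16 °C for 5 days, and polyA RNA was sequenced on day 5 and on day 2. The series asks which genes underlie the different maltose and maltotriose use of the strains. There were 4 groups of 3 libraries: SpIB2 on day 5, SpIB2 on day 2, SpIB1 on day 5 and SpIB1 on day 2. Neither strain is a control, and no other genotype or treatment is given. Whether replicates came from separate fermentations is not stated, so p-values measure the spread between these libraries, which may be technical.

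Ribosomal protein genes are the most heavily transcribed protein-coding genes of growing yeast, and their promoters are switched together by Rap1, Fhl1, Ifh1 and Sfp1 under the control of the TOR and protein kinase A pathways. Their messages fall when nutrients run short and return when growth resumes. In Saccharomyces cerevisiae most 40S proteins are encoded by a pair of paralogs, A and B, kept from an ancient genome duplication, and the proteins of a pair are identical or nearly so. A hybrid can carry each paralog from both parents, so that several gene copies feed 1 protein of the subunit.

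Libraries held 5133175 to 7922547 reads, and single RPS copies held 24 to 6163 reads per library, with no copy at 0. Values are given as CPM (reads scaled to a common library size with TMM factors), without a correction for length. Read shares between copies or paralogs are therefore shares of reads and not levels per length. In the SpIB2 groups, 2 libraries stood apart from their replicates. Log2 CPM over all copies correlated at 0.914 and 0.922 between SpIB2 day 5 replicate 1 and its replicates, and at 0.897 and 0.906 between SpIB2 day 2 replicate 3 and its replicates, against 0.951 to 0.988 in the other pairs. The TMM factor of SpIB2 day 5 replicate 1 was 0.509, against 0.868 to 1.346 in the other libraries, and this library held the lowest CPM of 98 of the 101 RPS copies. Over RPS copies the median SD of log2 CPM between replicates was 0.96 in SpIB2 on day 5, 0.51 in SpIB2 on day 2, 0.24 in SpIB1 on day 5 and 0.12 in SpIB1 on day 2. The counts give shares of the messenger RNA pool, and the amount of messenger RNA per cell was not measured.

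The RPS share of all reads moved in opposite directions in the strains. In SpIB2 on day 5 the 101 copies took 0.244%, 1.21% and 1.36% of reads, and on day 2 they took 3.54%, 1.93% and 3.23%. In SpIB1 on day 5 they took 3.21%, 2.93% and 2.45%, and on day 2 they took 1.38%, 1.53% and 1.43%. Every SpIB2 day 5 library lay below every SpIB2 day 2 library, and every SpIB1 day 5 library lay above every SpIB1 day 2 library. The means were 0.940% ± 0.607 in SpIB2 on day 5, 2.90% ± 0.853 in SpIB2 on day 2, 2.86% ± 0.387 in SpIB1 on day 5 and 1.45% ± 0.0786 in SpIB1 on day 2 (SD, n = 3 each). Reads of the RPS copies stood in a narrow ratio to those of large-subunit protein copies (RPL), 0.715 to 0.889 over the 12 libraries.

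**Figure D1:**
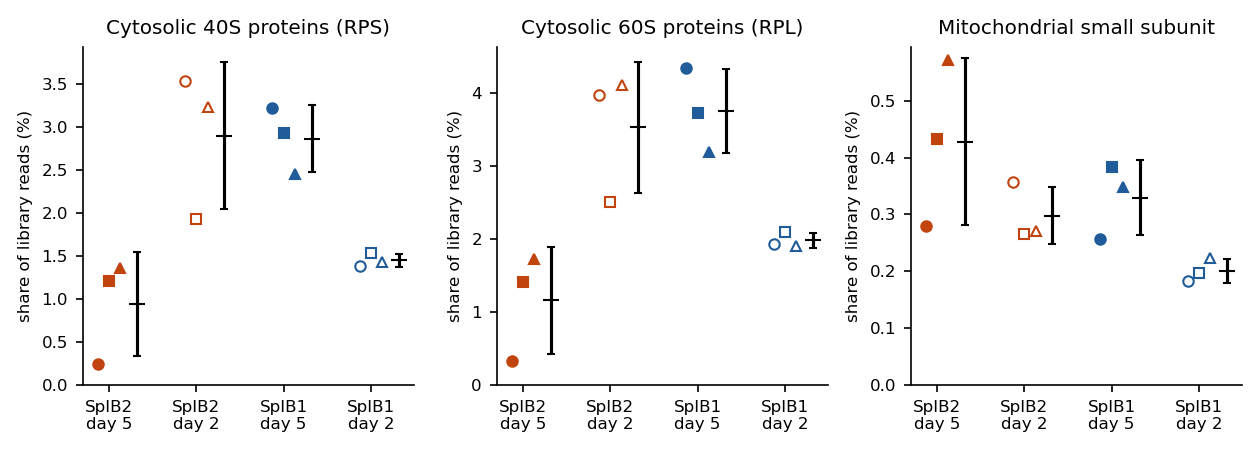
Share of all reads of a library (%) taken by RPS copies, RPL copies and copies of mitochondrial small-subunit proteins, by strain and day; circles, squares and triangles are replicates 1, 2 and 3, filled on day 5 and open on day 2, and bars give the mean ± SD (n = 3). RPS and RPL shares are low on day 5 in SpIB2 (RPS mean 0.940%) and high on day 5 in SpIB1 (2.86%). The mitochondrial share is not low on day 5 in either strain. Its copies were taken by symbol and can include proteins of the mitochondrial large subunit.

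In SpIB2, 40S protein messages fell on day 5 in nearly all of the 30 listed proteins. Of 101 RPS copies, 79 were called lower on day 5 than on day 2 and 0 higher (edgeR quasi-likelihood test, adjusted p under 0.05), where 23.5% of all 10659 tested copies were called lower and 21.8% higher. All 101 fitted changes were negative, between -2.15 and -0.47 on the log2 scale with a median of -1.30, against -0.10 over all copies. The groups did not overlap in 68 copies, all lower on day 5, where 25.2% of all copies were apart in that direction. Summed per protein, 28 of 30 were called lower, against 25.2% of 4697 summed genes.

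Those 28 covered both lobes of the subunit. Of 13 listed proteins of the head, which swivels during translocation, 12 were called lower. Of 17 listed proteins of the body and platform, 16 were called lower. Both medians were -1.31. RPS1, a platform protein near the mRNA exit, had 206, 788 and 637 CPM on day 5, against 2844, 1206 and 2420 CPM on day 2. Its groups did not overlap, and its change of -1.99 ± 0.46 (SE) was the deepest of the 30 proteins (adjusted p = 0.00419, edgeR). RPS2, which with RPS3 lines the mRNA entry, had 124, 363 and 323 CPM on day 5, against 940.1, 645 and 1028 CPM on day 2. All its day 5 libraries lay below all day 2 libraries, with a change of -1.69 ± 0.38. RPS14, a platform protein needed for the final trimming of 18S ribosomal RNA, had the smallest change, -0.68 ± 0.37 (adjusted p = 0.147, edgeR). Its values were 151, 406 and 525 CPM on day 5 and 571, 540.4 and 621 CPM on day 2. All day 5 libraries lay below all day 2 libraries.

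By copy, both paralogs of RPS1 and RPS22A were among the deepest falls in SpIB2. RPS1B_2 had 53.9, 165 and 153 CPM on day 5, against 659, 336 and 654 CPM on day 2, a log2 fold change of -2.15 ± 0.42 (adjusted p = 0.00158, edgeR). Changes were -1.98 for RPS1A_1, -1.86 for RPS22A_1, -1.85 for RPS1B_1 and -1.84 for RPS1A_2. Of the 35 symbols with several copies, 20 had all copies called, 13 some and 2 none. The 22 copies not called included all 3 copies of RPS14A. Among the 6 copies with the most reads over all libraries, RPS23A_2, RPS23A_1, RPS26A and RPS10A_1 were among those called lower. RPS12_1 fell short at -1.12 ± 0.47 (adjusted p = 0.0619, edgeR). The count of 79 lower copies was 51 without SpIB2 day 2 replicate 1, where 18.4% of all copies were called lower. It was 51 without both libraries that stood apart (median -0.81), against 19.5% of all copies. Fitting only the 6 SpIB2 libraries gave 21, against 10.5% of all copies. The count of 28 proteins was 15 without SpIB2 day 2 replicate 1, 14 without SpIB2 day 2 replicate 3 and 17 without both libraries that stood apart.

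In SpIB1 the same genes had higher values on day 5, but no copy passed the test. None of the 101 copies was called in either direction (edgeR), where 0.863% of all copies were called higher and 2.61% lower. At an unadjusted p under 0.05 there were 23 RPS copies. The share of all copies, summed genes, symbols or pairs at an unadjusted threshold is not given here. Such counts, here and below, therefore cannot be weighed against it. DESeq2 called 5 higher and 0 lower, and a fit of only the 6 SpIB1 libraries called 75 higher. DESeq2 called 4.34% of all copies higher, close to the RPS share, and the fit of 6 libraries called 10.4% of all copies higher and 11% lower. All 101 fitted changes were positive, with a median of 0.74 against 0.00 over all copies. In 96 copies every day 5 library lay above every day 2 library, where 18.6% of all copies were apart in that direction and 20.2% in the other. Summed per protein, changes ran between 0.40 for RPS27 and 1.03 for RPS12, and 0 of 30 were called (2 had an unadjusted p under 0.05), where 0.766% of summed genes were called higher and 2.68% lower. RPS12, a small protein at the beak of the head, had 812, 731 and 572 CPM on day 5, against 312, 375 and 351 CPM on day 2. The 3 day 5 libraries lay above all day 2 libraries, with a change of 1.03 ± 0.44 (adjusted p = 0.230, edgeR).

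**Figure D2:**
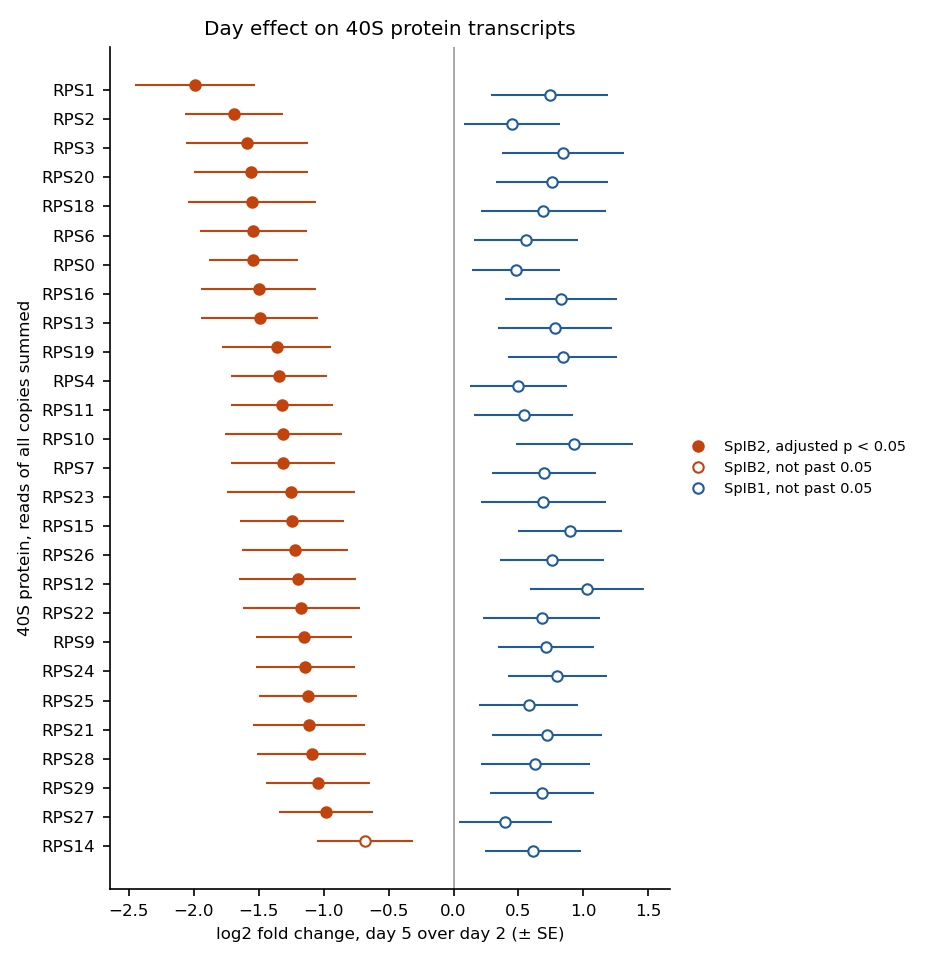
Log2 fold change of day 5 over day 2 (± SE, edgeR) in SpIB2 (red) and SpIB1 (blue), 3 libraries per group. Drawn are 27 of the 30 listed 40S proteins, reads of all copies summed. Filled points passed an adjusted p of 0.05. All SpIB2 values drawn lie below 0, between -1.99 and -0.68, and all SpIB1 values above 0, between 0.40 and 1.03.

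The day effect itself differed between the strains. The contrast of day effects (SpIB2 minus SpIB1) was called negative in 90 of 101 copies and positive in 0, where 11.9% of all copies were called negative. Its median was -2.04 over RPS copies and -0.07 over all copies. Summed per protein, 28 of 30 were called negative, against 12.9% of summed genes, and RPS14 and RPS27 were not. RPS1B_2 led with -3.00 ± 0.59 (adjusted p = 0.00434, edgeR). RPS26B_2 and RPS26B_1 followed with -2.74 ± 0.58 and -2.68 ± 0.60; RPS26 sits at the mRNA exit next to the bases upstream of the start codon. RPS26B_2 had 17.5, 56.5 and 68.5 CPM on day 5 in SpIB2, against 175, 85.5 and 168 CPM on day 2, and 172, 151 and 136 CPM on day 5 in SpIB1, against 61.3, 78.1 and 65.4 CPM on day 2. The days were apart in both strains, in opposite directions. RPS22A_1 (-2.74), RPS7A_1 (-2.68) and RPS1A_2 (-2.67) completed the leading 6. The 90 copies became 50 without SpIB1 day 2 replicate 1, 44 without SpIB1 day 2 replicate 3 and 51 without SpIB1 day 5 replicate 1. Of all copies, 6.65%, 5.63% and 7.12% were called negative in those fits. The 28 proteins became 16, 14 and 17 in the same order.

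On day 2, RPS messages were higher in SpIB2 than in SpIB1. Of 101 copies, 55 were called higher and 0 lower (edgeR), where 19.3% of all copies were called higher and 16.0% lower. The median was 1.20, against 0.04 over all copies, and 94 of the 101 fitted values were positive. In 74 copies every SpIB2 library lay above every SpIB1 library, where 26.8% of all copies did so, and in RPS14A_2 alone every SpIB2 library lay below. RPS1A_2 had 777, 269 and 546 CPM in SpIB2, against 93.0, 109.1 and 109.4 CPM in SpIB1. Its log2 fold change of 2.35 ± 0.48 was the highest of the RPS copies (adjusted p = 0.00211, edgeR). RPS20_2, a copy of a head protein, had 579, 248 and 537 CPM in SpIB2, against 101, 112 and 110.4 CPM in SpIB1, a change of 2.08 ± 0.46. In both copies the lowest SpIB2 library, replicate 2, still exceeded the highest SpIB1 library by more than 2-fold. RPS14A_3 (2.16), RPS21A_2 (2.11), RPS22A_2 (2.07) and RPS10A_2 (2.06) were also among the leading 6, and 5 of these 6 are numbered copy 2.

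Summed per protein, 11 of 30 were called higher in SpIB2 on day 2 (among them RPS1, RPS7, RPS10, RPS12, RPS20, RPS21, RPS22, RPS23 and RPS28), against 13.7% of summed genes. They comprised 5 of the 13 head proteins and 6 of the 17 body and platform proteins. All 30 fitted values were positive, between 0.36 for RPS4 and 1.56 for RPS20. RPS20 had 1005, 460.4 and 978 CPM in SpIB2, against 242, 312 and 275 CPM in SpIB1, groups that did not overlap. These protein counts turned on single libraries: 0 were called when any SpIB1 day 2 library or the SpIB2 day 2 replicate 1 library was left out, and 3 without SpIB2 day 2 replicate 3. The 55 copies became 26, 36 and 34 without SpIB1 day 2 replicates 1, 2 and 3, and 34 without SpIB2 day 2 replicate 1. In those fits 11.8%, 13.6%, 14.3% and 13.3% of all copies were called higher.

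On day 5 the difference ran the other way. Of 101 copies, 48 were called lower in SpIB2 than in SpIB1 and 1 higher (edgeR), where 26.5% of all copies were called lower and 29.9% higher. The median was -0.92, against 0.03 over all copies. In 66 copies every SpIB2 library lay below every SpIB1 library, where 30.8% of all copies did so. The copy of RPS0 listed without a letter had 26.1, 40.3 and 44.9 CPM in SpIB2, against 203, 138 and 175 CPM in SpIB1; RPS0 joins the body late in assembly together with RPS21. Its change was -2.21 ± 0.29 (adjusted p = 3.30e-05, edgeR), although on day 2 it differed by only -0.13 ± 0.28. RPS3_2, a copy of a head protein of the mRNA entry, had 30.6, 114 and 129 CPM in SpIB2, against 484, 372 and 326 CPM in SpIB1, a change of -2.11 ± 0.46. Both copies were well separated between the strains. RPS24A_2 (-2.10), RPS0B_1 (-1.95) and RPS4A_3 (-1.91) followed.

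The 1 copy called higher in SpIB2 on day 5 was RPS14A_3. It had 65.6, 156 and 186 CPM in SpIB2, against 62.6, 47.6 and 66.9 CPM in SpIB1, so SpIB2 replicate 1 lay among the SpIB1 libraries. The change was 1.20 ± 0.34 (adjusted p = 0.00757, edgeR), and it was 0.57 with an adjusted p of 0.242 in the same edgeR test on library totals. Summed per protein, 16 of 30 were called lower in SpIB2 and 0 higher, against 27.3% of summed genes called lower. They comprised 6 of the 13 head proteins and 10 of the 17 body and platform proteins. RPS0 was lowest at -1.59 ± 0.34, with 132, 289 and 324 CPM in SpIB2 and 884, 624 and 739.7 CPM in SpIB1, groups that did not overlap. Without SpIB1 day 5 replicate 1, 29 copies and 8 proteins were called lower, where 22.6% of all copies were called lower. The 29 of 101 copies is near that share. Without SpIB2 day 5 replicate 1, 3 copies were called higher, where 28% of all copies were.

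**Figure D3:**
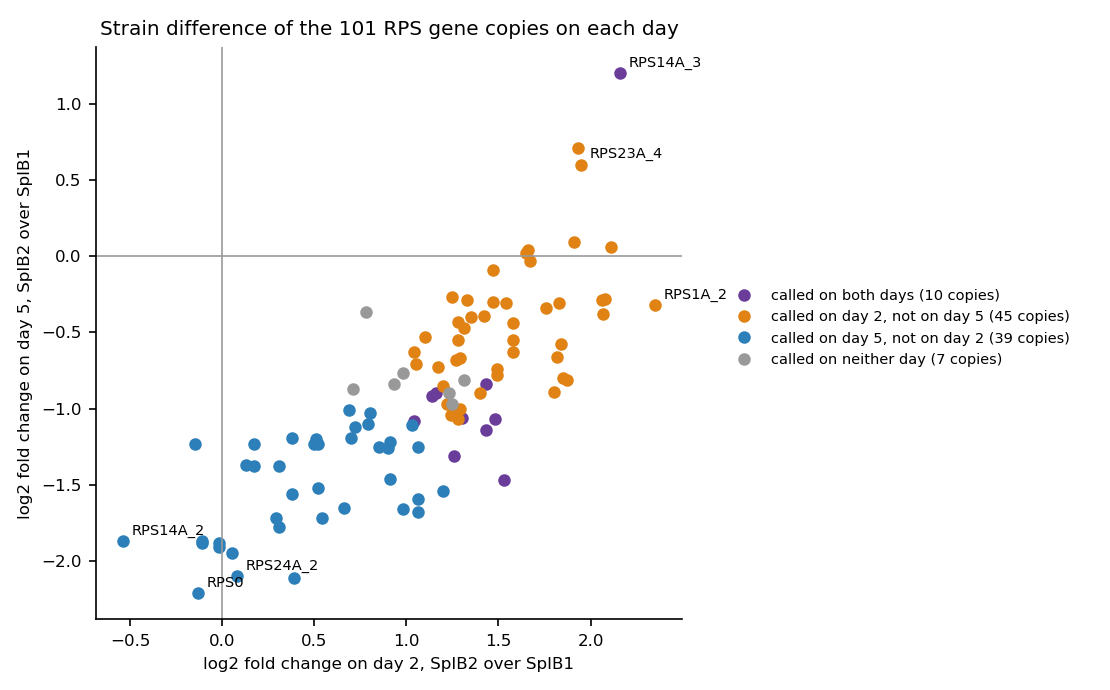
Log2 fold change of SpIB2 over SpIB1 (edgeR) on day 2 (x axis) and day 5 (y axis) for each of the 101 RPS copies, 3 libraries per group and day, coloured by the day on which the copy passed an adjusted p of 0.05. Most points lie right of 0 and below 0; 10 copies were called on both days, 45 on day 2 and not on day 5, 39 on day 5 and not on day 2, and 7 on neither, and RPS14A_3 is the copy called higher on both days.

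Fold changes shifted with the scaling. With library totals in place of TMM factors, the median of all copies became -0.72 for SpIB2 against SpIB1 on day 5, -0.54 for day 5 against day 2 in SpIB2, 0.27 for day 5 against day 2 in SpIB1, 0.00 for the strains on day 2 and -0.78 for the contrast of day effects. Relative to all copies, the RPS medians were -0.85, -1.07, 0.74, 1.15 and -1.84 in that order with library totals, and -0.96, -1.20, 0.74, 1.16 and -1.97 with TMM. The RPS direction was thus the same under both scalings in all 5 contrasts. Among all called copies, the share called higher was 23.6% with library totals and 53.05% with TMM for the strains on day 5. It was 26.6% and 48.1% for the day effect in SpIB2, 51.2% and 24.9% for the day effect in SpIB1, and 19.5% and 55.1% for the contrast of day effects. With library totals, RPS copies called were 0 higher and 77 lower for the strains on day 5, 33 higher and 0 lower for the strains on day 2, and 88 lower for the day effect in SpIB2. That scaling called 45.6% of all copies lower for the strains on day 5, 13.6% higher for the strains on day 2 and 33.9% lower for the day effect in SpIB2.

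Within libraries, the balance between copies of an RPS symbol was compared between the strains. The ratio of copy 2 to copy 1, taken within each library, can be compared for 35 symbols and does not depend on scaling. Between SpIB2 and SpIB1 it differed in 30 of 35 symbols on day 2, against 56.0% of 4121 symbols tested, and in 25 of 35 on day 5, against 64.6% (limma, adjusted p under 0.05). The median size of the difference was 0.76 over RPS symbols and 0.75 over all symbols on day 2, and 0.68 and 0.94 on day 5. How reads that match several copies were assigned is not given in the sources used here, so shares of near-identical copies are uncertain. An edgeR model of copy use on the counts called 2 of the 35 RPS symbols on day 2 and 3 on day 5, where it called 30% and 45% of all symbols, so the number of RPS symbols called rests on the choice of test.

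RPS14A showed the widest shift. Copy 2 took 32.8%, 34.1% and 36.0% of RPS14A reads in SpIB2 on day 5 and 37.0%, 35.9% and 39.9% on day 2. In SpIB1 it took 76.3%, 75.0% and 72.1% on day 5 and 76.6%, 78.8% and 74.8% on day 2. The strains were far apart on both days and the days were close. The difference in the log2 ratio of copy 2 to copy 1 (SpIB2 minus SpIB1) was -2.19 ± 0.14 on day 2 (adjusted p = 1.78e-08, limma) and -1.89 ± 0.14 on day 5. Copy 3 took 41.0%, 38.9% and 35.0% in SpIB2 on day 5, against 8.58%, 9.60% and 10.3% in SpIB1 on day 5. Reads of this protein were thus spread over 3 copies in SpIB2 and came mainly from copy 2 in SpIB1.

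For 3 symbols a different copy led in all 6 libraries of each strain. RPS2_1 led in SpIB2 with 51.5% to 60.2% of RPS2 reads, and RPS2_2 led in SpIB1 with 62.8% to 68.6%. RPS20_2 led in SpIB2 with 52.6% to 67.9%, and RPS20_1 led in SpIB1 with 53.4% to 63.8%. RPS24A_1 led in SpIB2 with 38.1% to 45.2%, and RPS24A_2 led in SpIB1 with 39.8% to 46.0%. The same copy led in all 12 libraries for 15 symbols, and in the other 17 the leading copy varied between libraries of a strain.

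**Figure D4:**
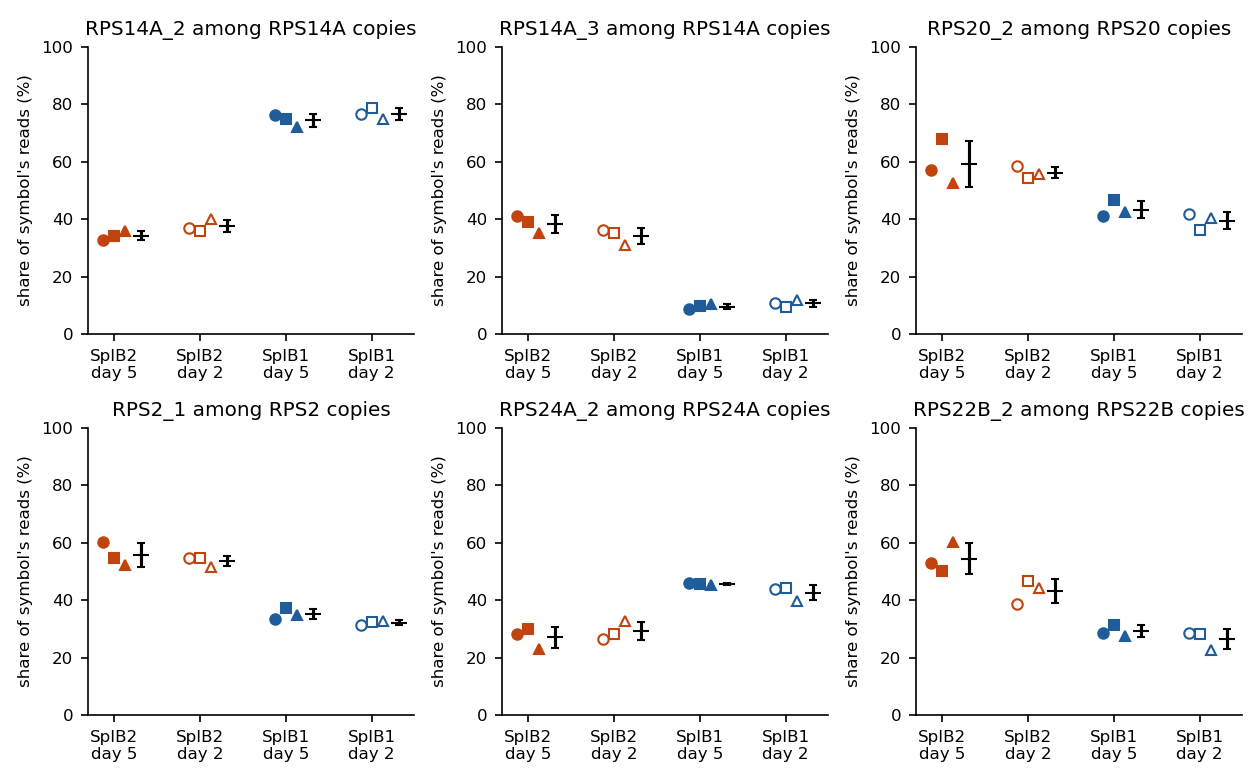
Share of a symbol's reads (%) taken by a named copy in each library, by strain and day, with mean ± SD (n = 3); circles, squares and triangles are replicates 1, 2 and 3, filled on day 5 and open on day 2. RPS14A_2 lies at 32.8% to 39.9% in SpIB2 and 72.1% to 78.8% in SpIB1, and all 6 copies shown have SpIB2 libraries that lie apart from the SpIB1 libraries on both days.

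Between days the copies of a symbol mostly moved together. In SpIB2 the ratio of copy 2 to copy 1 changed on day 5 in 5 of 35 symbols, against 39.5% of all symbols. They included RPS22B (0.66 ± 0.20), RPS19B (0.47 ± 0.14), RPS7A (0.39 ± 0.15) and RPS15 (-0.49 ± 0.14). RPS22B_2, a copy of a body protein bound to the central domain of 18S ribosomal RNA, took 53.0%, 50.1% and 60.4% of RPS22B reads in SpIB2 on day 5, against 38.8%, 46.7% and 44.2% on day 2. Every day 5 library lay above every day 2 library. Without SpIB2 day 2 replicate 1 no RPS symbol was called. There were 3 without SpIB2 day 5 replicate 1, and RPS22B fell short without SpIB2 day 5 replicate 3. In SpIB1 no RPS symbol was called (limma; 6 had an unadjusted p under 0.05), against 2.60% of all symbols.

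The day effect on copy balance differed between the strains for RPS7A (0.88 ± 0.21, adjusted p = 0.0110, limma) and RPS9A (-0.96 ± 0.29, adjusted p = 0.0320, limma), 2 of 35 symbols, against 20.3% of all symbols. RPS7A_2 took 38.5%, 34.8% and 35.4% of RPS7A reads in SpIB2 on day 5, against 27.3%, 32.3% and 31.2% on day 2, and 29.3%, 26.8% and 28.5% in SpIB1 on day 5, against 35.7%, 34.8% and 35.9% on day 2. The days were apart in both strains, in opposite directions. Only RPS7A was called when replicate 1 or 3 of SpIB1 day 2, replicate 1 or 2 of SpIB1 day 5, or replicate 1 or 3 of SpIB2 day 2 was left out, and 4 symbols were called without SpIB2 day 2 replicate 2.

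Paralog balance was compared on reads summed over the listed copies. Summing all copies of B and all copies of A in each of the 14 pairs, A had more reads than B in all 12 libraries for 7 pairs (among them RPS9, RPS10, RPS21, RPS25, RPS26 and RPS28), and B had more than A in all 12 for 4 (RPS0, RPS19, RPS22 and RPS29). RPS27, RPS7 and RPS1 were mixed. The number of listed copies is unequal in 7 of the 14 pairs, and in 6 of these 7 the paralog with more copies led. RPS9, RPS21 and RPS25 have 3 A copies and 1 B copy, and RPS0 and RPS29 have 1 lettered A copy and 2 B copies. The unlettered copies of RPS0 and RPS29 were left out of the sums. Per listed copy, B exceeded A in all 12 libraries for RPS21 and in 11 for RPS9, which turns the order of the sums, and in 1 library for RPS25. RPS0B exceeded RPS0A per copy in 10 libraries and RPS29B exceeded RPS29A in 12. RPS26A, a single copy, had more reads than both RPS26B copies together in all 12 libraries. In RPS27, whose paralog pair in Saccharomyces cerevisiae encodes nearly identical zinc-finger proteins, the log2 ratio of B to A was -0.83, 0.08 and 0.39 in SpIB2 on day 5 and 0.32, 0.64 and 0.60 on day 2. In SpIB1 it was -0.96, -0.79 and -0.96 on day 5 and -1.18, -0.92 and -0.92 on day 2. B thus led in 5 of 6 SpIB2 libraries and in 0 of 6 SpIB1 libraries, and 1 SpIB2 day 5 library, replicate 1, lay among those of SpIB1.

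Between SpIB2 and SpIB1 the B to A ratio differed in 6 of 14 RPS pairs on day 2 and in 7 of 14 on day 5 (limma). Over all 32 tested pairs of symbols ending in A and B, which include the 14, the shares were 40.6% and 62.5%. RPS0, RPS21, RPS25 and RPS27 were called on both days. RPS25, a head protein used by viral internal ribosome entry sites, had log2 ratios of -2.42, -2.80 and -2.68 in SpIB2 on day 5 against -2.01, -1.87 and -2.01 in SpIB1, and -2.56, -2.29 and -2.49 in SpIB2 on day 2 against -1.54, -1.64 and -1.64 in SpIB1. The strains did not overlap on either day, with differences of -0.67 ± 0.12 on day 5 and -0.84 ± 0.12 on day 2. RPS0 differed by -0.74 ± 0.13 on day 5 and -0.84 ± 0.13 on day 2, and RPS21 by -0.65 ± 0.14 and -0.73 ± 0.14. RPS27 differed in the other direction, by 0.78 ± 0.25 on day 5 and 1.53 ± 0.25 on day 2. RPS7 and RPS26 were called on day 2 (RPS26 not when replicate 3 of SpIB1 or replicate 1 or 3 of SpIB2 was left out), and RPS1 and RPS22 were among those called on day 5. In RPS29 the strains were close, with differences of 0.06 ± 0.13 on day 5 and 0.00 ± 0.13 on day 2. The unlettered RPS0 and RPS29 copies were in neither sum. Mean CPM of the unlettered RPS0 copy and of RPS0A were 37.1 and 65.8 in SpIB2 on day 5, and 119.5 and 196.5 on day 2. In SpIB1 they were 172 and 123 on day 5, and 131 and 87.8 on day 2. The RPS0 and RPS29 differences hold for the lettered copies only. Counting the unlettered copies with A or B was not tested.

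Paralog balance changed between days in SpIB2 for 3 of 14 pairs, against 34.4% of pairs, and for none in SpIB1 (limma; 2 had an unadjusted p under 0.05), against 0% of pairs. The B to A log2 ratio of RPS22 was 1.72, 1.63 and 1.51 in SpIB2 on day 5, against 0.82, 0.96 and 0.42 on day 2, a change of 0.88 ± 0.21 (adjusted p = 0.00845, limma). In SpIB1 it was 0.26, 1.10 and 0.89 on day 5, against 1.12, 0.77 and 1.12 on day 2. The days were apart in SpIB2 and overlapped in SpIB1. The other 2 pairs were RPS7, with 0.31, -0.51 and -0.17 on day 5 against -1.58, -0.73 and -1.12 on day 2, and RPS9, with -1.76, -1.05 and -0.81 on day 5 against -0.58, -0.67 and -0.66 on day 2. Without SpIB2 day 2 replicate 1 only RPS22 was called, and without SpIB2 day 5 replicate 1 the RPS9 change was -0.29, still called. The day effect differed between strains for RPS22 (1.13) and RPS26 (-1.00), 2 of 14 pairs, against 18.8% of pairs. No pair was called when replicate 1 or 3 of SpIB1 day 2, replicate 3 of SpIB2 day 2 or replicate 1 of SpIB2 day 5 was left out, and 1 pair was called when any SpIB1 day 5 library or replicate 1 of SpIB2 day 2 was.

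**Figure D5:**
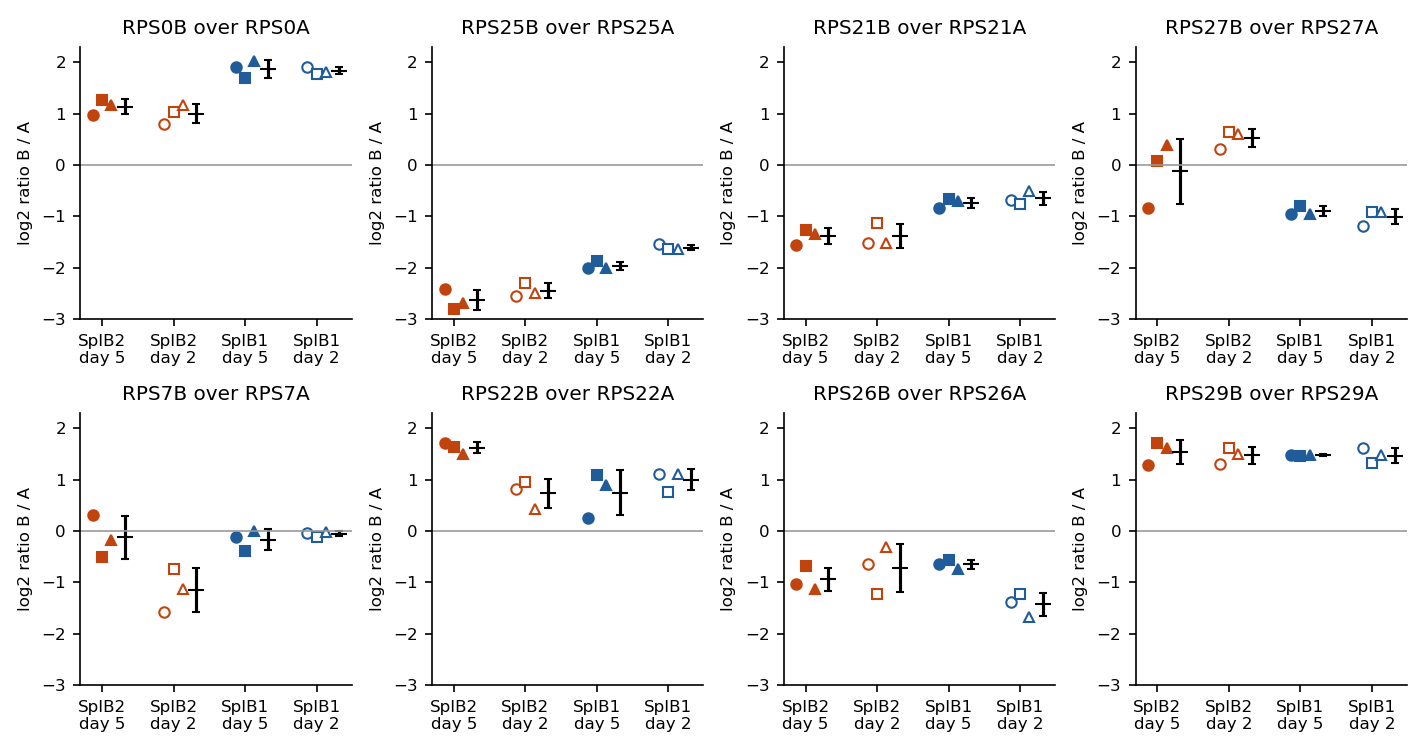
Log2 ratio of B to A reads, all copies of each paralog summed, in each library for 8 of the 14 RPS pairs, by strain and day, with mean ± SD (n = 3); circles, squares and triangles are replicates 1, 2 and 3, filled on day 5 and open on day 2. RPS0, RPS25 and RPS21 are lower in SpIB2 than in SpIB1 on both days. RPS22 is high in SpIB2 on day 5 (1.51 to 1.72), and RPS29 is close in all groups. The unlettered copies of RPS0 and RPS29 are in neither sum.

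Large-subunit proteins moved with the RPS copies in all 5 contrasts, and copies listed by symbol as mitochondrial small-subunit proteins had the RPS direction in some. Of 136 readable RPL copies, 116 were called lower in SpIB2 on day 5 than on day 2 and 0 higher (edgeR), with a median of -1.30, where 23.5% of all copies were called lower. Without SpIB2 day 2 replicate 1 there were 74, and 73 without both libraries that stood apart. In those fits 18.4% and 19.5% of all copies were called lower. For SpIB2 against SpIB1 on day 5, 76 of 136 were called lower and 3 higher, with a median of -1.04, where 26.5% of all copies were called lower. RPL medians were 0.84 for the strains on day 2, 0.73 for the day effect in SpIB1 and -1.95 for the contrast of day effects. The mitochondrial list was taken by symbol (MRPS, RSM or MRP and a number) and not by known membership. It can therefore hold proteins of the mitochondrial large subunit and miss some of the small subunit. Of its 64 copies, 27 were called higher in SpIB2 on day 5 than on day 2 and 0 lower. Their median was 0.66, where 21.8% of all copies were called higher. On library totals 11 were called higher and 1 lower, where 12.3% of all copies were called higher and 33.9% lower. For the strains on day 5 their median was 0.57, also opposite to the RPS copies. For the strains on day 2, 25 were called higher and 5 lower with a median of 0.63, where 19.3% of all copies were called higher and 16.0% lower. There were 16 higher and 2 lower without SpIB1 day 2 replicate 1, and 3 lower when replicate 2 or 3 of SpIB1 or replicate 1 of SpIB2 was left out. For the day effect in SpIB1 the median was 0.56 with 56 of 64 values positive. Both medians had the RPS direction.

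Among 28 copies of regulators of ribosomal protein genes, 5 were called higher and 2 lower in SpIB2 on day 5 than on day 2 (edgeR). Both shares are below those over all copies, 21.8% higher and 23.5% lower, so the calls below describe single genes and not the list. DOT6, a Myb-type repressor of ribosome biogenesis genes, was higher in both copies. DOT6_1 had 1963, 445 and 498 CPM on day 5, against 133, 198 and 109 CPM on day 2, a change of 2.72 ± 0.53. DOT6_2 had 3341, 474 and 523 CPM on day 5, against 79.6, 144 and 128 CPM on day 2, a change of 3.63 ± 0.67. The days did not overlap in either copy, and day 5 replicate 1, the library with the lowest RPS values, had the highest DOT6 values. Without that library the changes were 1.68 and 2.08, both called. STB3, a repressor that binds a ribosomal RNA processing element upstream of growth genes, was also higher in both copies, by 1.45 ± 0.29 and 1.64 ± 0.41. RAP1_1, a copy of the gene of the general activator of these promoters, was called higher at 1.01 ± 0.30, and its days overlapped. It was 0.50 on library totals and 0.78 without SpIB2 day 5 replicate 1, below the threshold in both. The lower copies were KOG1_1 (-0.63), of a TOR complex subunit, and TOR2_2 (-1.11); the count of 2 lower was 1 when SpIB2 day 2 replicate 1 or SpIB2 day 5 replicate 3 was left out, and 5 without SpIB2 day 5 replicate 1. In the contrast of day effects DOT6_1 and DOT6_2 reached 2.79 and 3.93.

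Genes of proteins that bind the finished 40S subunit were mostly lower on day 5 in SpIB2. Of 19 copies of 40S-bound proteins and initiation factors, 11 were called lower and 1 higher in SpIB2 on day 5 than on day 2 (edgeR), where 23.5% of all copies were called lower and 21.8% higher. For the strains on day 5, 13 were called lower, with a median of -1.06, and 2 higher (1 when replicate 2 or 3 of SpIB1 or replicate 3 of SpIB2 was left out). Of all copies, 26.5% were called lower and 29.9% higher there. For the strains on day 2 the median was 0.09, against 1.20 over RPS copies, with 5 called higher and 3 lower. These calls are near the shares over all copies, 19.3% higher and 16.0% lower. There were 3 higher when any SpIB1 day 2 library or SpIB2 day 2 replicate 1 was left out, and 1 lower when replicate 2 or 3 of SpIB1 or replicate 1 of SpIB2 was. ASC1, the RACK1 homologue on the back of the head, had 71.1, 159 and 166 CPM of copy 2 on day 5, against 479, 368 and 662 CPM on day 2, a change of -1.93 ± 0.36. STM1, which clamps idle ribosomes, changed by -1.23 ± 0.36 and -1.30 ± 0.34 in its 2 copies, and the eIF3 subunit gene RPG1 by -1.39 ± 0.34 and -0.98 ± 0.28. SUI1_2, which encodes the start-codon factor eIF1, was the copy called higher, at 1.04 ± 0.31. Fitting only the 6 SpIB2 libraries, 3 copies were called lower and 0 higher, where 10.5% of all copies were called lower and 14.2% higher.

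Of 28 copies of late 40S assembly factors, 1 was called higher and 3 lower in SpIB2 on day 5 than on day 2 (edgeR), where 21.8% of all copies were called higher and 23.5% lower. For SpIB2 against SpIB1 on day 5, 11 were called lower and 1 higher, with a median of -0.50, where 26.5% of all copies were called lower. On library totals 22 were called lower, where 45.6% of all copies were called lower. BUD23, which methylates 18S ribosomal RNA, was the higher one at 1.45 ± 0.35. TSR1_1 (-1.02 ± 0.35), TSR1_2 (-0.79 ± 0.31) and RIO2_1 (-0.68 ± 0.26), of factors bound to the late precursor of the subunit, were the lower ones, and their days overlapped. The 3 lower copies became 5 without SpIB2 day 2 replicate 2, 0 when SpIB2 day 2 replicate 3 or SpIB2 day 5 replicate 1 was left out, and 1 without SpIB2 day 5 replicate 3. The 1 higher became 3 without SpIB2 day 2 replicate 3.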

How the data were processed

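The authors deposited whole-number read counts per gene copy, 1 table per library, which are not normalised (unit tested on the values). Per the submitters' processing notes, which give no roles, the tools were HTSeq 0.11.1, STAR 2.7.3a, edgeR 3.34.0 and Trimmomatic 0.38. The sources used here do not give the genome build, the strand setting or the handling of multi-mapping reads. Per the labels' protocols, RNA was taken by hot phenol and had an integrity number above 8. Of 11312 copies, 35 held a non-numeric count in 1 library and were dropped. The members and gene lists were chosen with earlier results of these data known.

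Counts of all 12 libraries were fitted together with edgeR 4.0.16 (R 4.3.3): filterByExpr left 10659 copies, TMM scaling, 1 coefficient per group, robust quasi-likelihood test on 8 residual degrees of freedom, Benjamini-Hochberg adjustment over all copies, threshold 0.05. All 101 RPS copies passed the filter. Reads summed per protein or symbol (4697 tested) were fitted likewise. Log2 ratios of copy 2 to copy 1 (4121 symbols with a mean of at least 10 reads) and of B to A (32 pairs), with 0.5 reads added, were tested with limma 3.58.1. Scripts were tested on simulated data. Errors are SE for fold changes and SD for values.

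Named copies were the up to 6 called copies with the largest change in each direction and contrast with at least 10 CPM in the higher group, the 6 copies with the most reads, the 6 symbols or pairs with the smallest adjusted p, and list members that passed. A few others (RPS29, RPS12 and the 3 symbols with different leading copies) were added after their values were seen. Head and body assignments follow the known yeast structure. No genome or protein table was used here, so no sequence or position is given. DESeq2 1.42.0 was an alternative. The B to A ratio per listed copy was added after the data had been seen. Results for some items are not reported here.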

Additional observations from a re-analysis of the deposited data

Results flagged for a closer look

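Each result here was picked because the day effect (day 5 against day 2) differed between SpIB2 and SpIB1 in the test of that difference (edgeR for levels, limma for ratios); values are SpIB2 minus SpIB1 on the log2 scale. It differed in 90 of 101 RPS copies, where 11.9% of all copies were called negative. It differed in 28 of 30 proteins of the 40S subunit, against 12.9% of summed genes. All these RPS differences were negative. The leading copies were RPS1B_2 (-3.00), RPS26B_2 and RPS22A_1 (-2.74 each), RPS26B_1 and RPS7A_1 (-2.68 each) and RPS1A_2 (-2.67).

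Copy balance differed for 2 of 35 symbols, RPS7A (0.88) and RPS9A (-0.96), against 20.3% of all symbols. Paralog balance differed for 2 of 14 pairs, RPS22 (1.13) and RPS26 (-1.00), against 18.8% of all pairs. Both RPS shares are below those over all symbols and pairs. Leaving out 1 library at a time gave 1 to 4 symbols and 0 to 3 pairs.

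Of genes that act on the subunit, the 40S-bound ASC1_1 (-2.24), ASC1_2 (-2.47), STM1_1 (-1.56) and STM1_2 (-1.65) went with the ribosomal proteins. So did the initiation factor copies PRT1_1 (-1.13), RPG1_1 (-1.49), TIF35_1 (-0.99) and TIF35_2 (-1.32) and the 18S ribosomal RNA dimethylase DIM1 (-1.68). The differences were positive for DOT6_1 (2.79), DOT6_2 (3.93), RAP1_1 (1.49), the corepressor CRF1 (1.83) and the methyltransferase BUD23 (1.85). CRF1 had 57.7, 66.5 and 68.2 CPM in SpIB2 on day 5 and 42.2, 61.1 and 30.3 CPM on day 2, against 59.7, 53.8 and 50.3 CPM in SpIB1 on day 5 and 117, 108 and 177 CPM on day 2. The days overlapped in SpIB2 and were apart in SpIB1. With 3 libraries per group, single libraries were not tested as outliers.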

How the results depend on the processing

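Among the named copies, symbols and pairs whose values were followed through the alternatives, no direction reversed. Those not followed include the RPS29 pair, RPS12_1, the unlettered RPS0 copy on day 2 and the changes of summed proteins. Leaving out 1 library at a time, RPS copies called ranged 26 to 65 (higher, strains on day 2), 29 to 61 (lower) and 1 to 3 (higher, strains on day 5), 51 to 89 (lower, SpIB2 day effect), 0 to 0 (SpIB1 day effect) and 44 to 93 (contrast of day effects). Proteins called ranged 0 to 14 (higher, strains on day 2), 8 to 20 (lower, strains on day 5), 14 to 29 (SpIB2 day effect) and 14 to 30 (contrast). For copy balance they were 0 to 7 (SpIB2 day effect) and 1 to 4 (contrast), and for paralog balance 1 to 4 and 0 to 3. Library totals gave 33 and 0 copies higher on day 2 and day 5, 77 lower on day 5, 0 proteins higher on day 2 and 26 lower on day 5. DESeq2 gave 5 copies higher in the SpIB1 day effect. Fitting only the 6 libraries compared gave 75 higher there and 21 lower in SpIB2. Adding 2 reads gave 5 pairs changed in SpIB2. The edgeR model of copy use gave 2, 3, 0 and 0 symbols (strains on day 2, on day 5, SpIB2 day effect, contrast) and 1 pair in the SpIB1 day effect. Without both SpIB2 libraries that stood apart there were 3 copies higher on day 5, 51 lower in SpIB2, 19 proteins higher on day 2, 17 lower in SpIB2, 1 symbol and 0 pairs in the contrast. The causes were not tested.

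Whether replicate numbers pair the samples is not given in the labels, and the libraries were fitted as unpaired. Same-numbered libraries deviated together at correlations of -0.55 to 0.46, and not above 0.1 in every pair of any contrast. Not every library correlated best with its own number. For the day effect in SpIB1 the correlations were 0.46, 0.02 and 0.37. With 3 libraries per group this check cannot exclude a pairing. With the replicate block, 1 protein was higher on day 2, and 1 symbol and 1 pair were called in the contrast; other counts stayed within 1.5 times. RPS copies held at least 24 reads per library, and their spread was widest between SpIB2 day 5 libraries. Results for lists under the alternatives were added after the data had been seen.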
